A study of Mus musculus with 9 samples.

Results

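The genes followed here encode the proton pump of the lysosome, the cathepsins it acidifies and the LAMP proteins of the lysosomal membrane, in mouse macrophages. Members were taken by symbol: names that begin with Atp6v or Atp6ap, names made of Cts and a single further letter, and Lamp followed by a digit. Symbols marked as pseudogenes by the ending -ps, 2 in number, were left out. The rule found 41 of the 28998 genes in the table, of which 22 belong to the proton pump, 15 are cathepsins and 4 are LAMP genes. The pump genes comprise 11 of the V1 sector, 9 of the Vo sector and 2 accessory genes. Levels are given in FPKM, the authors' deposited measure, which scales a transcript's reads to its length and to the size of the library. Of the 41 members, 32 had a mean of at least 1 FPKM over all libraries and were tested, and 9 did not.

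Cells were WT macrophages (BMDMs) derived from marrow monocytes of C57 mice over 7 days with the growth factor GM-CSF, a treatment that all groups share. They fall into Control, JHU083 and WGFT17 groups of 3 libraries each, and both drug groups received their compound for 36 h. JHU083 is known as a prodrug of a glutamine antagonist, and WGFT17 is known here by its code name only. The labels give neither doses nor the age of the mice, and they do not say what Control cells received or for how long they were kept, so culture time and drug cannot be told apart in comparisons with Control. The labels do not say whether the libraries of a group came from separate animals or cultures. P-values here therefore measure only the spread between these libraries, which may be technical.

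The vacuolar ATPase is a rotary pump. Its V1 sector sits in the cytosol and hydrolyses ATP, its Vo sector lies in the membrane and carries protons into the lumen, and the sectors can come apart and reassemble. The acid it makes activates cathepsins, which digest proteins delivered by endocytosis, phagocytosis and autophagy, while heavily glycosylated LAMP proteins line the inner face of the membrane. Many genes of this kind are known to share a promoter element, the CLEAR motif, an E-box bound by the transcription factors TFEB, TFE3 and MITF.

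Promoters of the members were read for that E-box, because it is the element known to be shared by these classes of gene. The search covered the 250 bases before each start site in the RefSeq promoter table (GRCm38.p6), for the letters TCACGTG on either strand, that is TCACGTG or CACGTGA. Entries were found for 31 of the 41 members, 24 of them tested. Of these 24, 5 held the motif (20.8%), against 5.95% of the 8691 tested genes with an entry and 3.13% of all 32851 promoters of the same length. The shorter core CACGTG, which lies within this motif, was in 7 of 24 tested members (29.2%), adding Ctsl and Ctsf, and in 10.29% of the tested genes. Further patterns were searched as well. A longer palindrome that contains TCACGTG was in 0 of 24 tested members and in 0.63% of the tested genes. At so low a rate, its absence from 24 members says little. A variant of TCACGTG with 1 base changed was in 1 of 24 tested members (4.2%), Atp6v0c, and in 2.27% of the tested genes. The stretches around the TCACGTG matches are printed 5′ to 3′ in the direction of transcription, with every such match in capitals. They are the 70 bases before the Lamp1 start (chr8:13159091-13159160, plus strand), the 50 before Atp6v0b (chr4:117887330-117887379, minus strand), the 40 before Ctsa (chr2:164833733-164833772, plus strand), the first 40 of the 120 bases before Ctsd (chr7:142387908-142387947, minus strand), the first 20 of the 250 bases before Ctsd (chr7:142388058-142388077, minus strand) and the first 50 of the 150 bases before Atp6v1a (chr16:44139360-44139409, minus strand).
Lamp1: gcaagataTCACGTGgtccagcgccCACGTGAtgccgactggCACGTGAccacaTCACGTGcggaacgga
Atp6v0b: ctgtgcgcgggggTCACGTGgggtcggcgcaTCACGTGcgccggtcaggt
Ctsa: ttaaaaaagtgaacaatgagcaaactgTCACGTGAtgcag
Ctsd, near site: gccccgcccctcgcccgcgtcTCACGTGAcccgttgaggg
Ctsd, far site: tccccCACGTGAcctgtatc
Atp6v1a: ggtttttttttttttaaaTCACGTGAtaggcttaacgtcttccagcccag
Lamp1 carried 4 matches within these 70 bases and Atp6v0b carried 2, and Ctsa and Atp6v1a each carried a single site that matches on both strands. Ctsd carried such a site and, farther from the start, a further match on 1 strand. A match describes the letters and is not evidence of binding.

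All libraries had the macrophage markers fixed for the check (8 of 8 at a mean of 1 FPKM or more, led by Lyz2, Cd68 and Csf1r), with a summed level of 9571 to 10408 FPKM in Control, 10340 to 11537 with JHU083 and 10749 to 11986 with WGFT17. Lyz2 made up most of this sum. Mrc1 was at 102.5 to 121.8 FPKM in Control and 55.3 to 64.63 with WGFT17. Csf1r and Itgam were also lower with WGFT17 than in Control, and the other macrophage markers were higher. Transcripts of other cells moved with the groups. Fibroblast markers (6 of 7 at a mean of 1 FPKM or more, led by Col1a1) summed to 1320 to 1416 FPKM in Control, 850.4 to 1015 with JHU083 and 220 to 231 with WGFT17. Neutrophil markers (3 of 9) summed to 39.3 to 48.6, 10.02 to 12.1 and 1.31 to 2.45 FPKM. Dendritic cell markers (2 of 8, Itgax and Fscn1) summed to 95.4 to 110 FPKM in Control, 82.2 to 109 with JHU083 and 25.5 to 31.0 with WGFT17. Ccr7 of the same list was at 0.06 to 0.08 FPKM in Control and higher, at 0.43 to 0.96, with WGFT17. Markers of osteoclasts and giant cells (5 of 8) summed to 84.03 to 107, 71.4 to 96.0 and 39.3 to 42.5 FPKM. Of these, Itgb3 went the other way, at 5.58 to 6.69 FPKM in Control and 12.99 to 14.38 with WGFT17. Heart muscle transcripts (6 of 7) summed to 62.7 to 71.6 FPKM in Control, 51.1, 0.11 and 79.9 with JHU083, and 0.08 to 0.14 with WGFT17. Photoreceptor transcripts (2 of 7) summed to 6.44 to 8.64 FPKM in Control and to 7.5 in replicate 3 of JHU083, but to 0.10 to 0.17 in the other drug-treated libraries, so that replicate stands apart, and calls on members that change without it are given below. Liver transcripts (8 of 8) summed to 384 to 430, 69.4 to 215 and 94.9 to 218 FPKM. Cytotoxic lymphocyte markers (1 of 7, Gzmb) summed to 1.26 to 1.28 FPKM in Control, 6.88, 3.27 and 0.86 with JHU083 and 3.84 to 6.8 with WGFT17, and mast cell and basophil markers (1 of 7, Mcpt8) to 8.4 to 10.61, 3.24 to 4.14 and 0.22 to 0.53 FPKM. An alternative fit held a term for libraries with retinal transcripts, which rests on replicate 3 of JHU083 alone. Beyond that fit, what part these transcripts have in the results below was not tested. In bulk RNA, fewer cells of a type and less RNA per cell cannot be told apart.

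Summed over their genes, the pump, the cathepsins and the LAMP proteins each had more RNA in WGFT17 than in Control. The summed level of all members was 3.91, 3.86 and 4.02% of all FPKM in the Control libraries, 4.15, 4.46 and 4.09% with JHU083 and 5.89, 6.001 and 5.92% with WGFT17. The WGFT17 libraries were above all others, and the JHU083 libraries lay above Control by a smaller margin. Cathepsins made up most of this sum, at 9139.6, 9233 and 9619 FPKM in Control, 10058, 10709.9 and 9592 with JHU083 and 14515, 14905 and 14413 with WGFT17. Pump genes summed to 1123, 1144 and 1161 FPKM in Control, 1154, 1226 and 1156 with JHU083 and 1478, 1509 and 1460.2 with WGFT17. LAMP genes summed to 735, 728 and 722 FPKM in Control, 854, 864 and 799.9 with JHU083 and 1107, 1108 and 1119.7 with WGFT17. In each of the 3 classes the WGFT17 sums lay above every other library.

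Changes were then fitted for all 11798 genes with a mean of at least 1 FPKM, on the deposited estimated counts, with edgeR's quasi-likelihood test, and a gene was called at a Benjamini-Hochberg adjusted p under 0.05. Log2 changes come from this fit, in which the median gene moved by 0.0037 (JHU083 against Control) and 0.0044 (WGFT17 against Control), while on a log2(FPKM + 1) scale the same medians are 0.079 and 0.095. Changes read from FPKM therefore run slightly higher than the fitted ones. Against Control, 20 of 32 tested members rose with WGFT17 and 3 fell (called in either direction, 58% of all tested genes), and the median log2 change of the members was 0.28. Among all genes 28% were called higher and 30% lower. Levels in FPKM did not overlap between these groups for 27 members, 24 with WGFT17 above and 3 with it below, and for 73.2% of all tested genes (45% above, 28.2% below). With JHU083, 3 of 32 members rose and 4 fell, where 24% of all tested genes were called (11.5% higher, 12.5% lower), with a median log2 change of 0.0071. FPKM values did not overlap between JHU083 and Control for 15 members, 12 above and 3 below, and for 43.7% of all tested genes (31.3% above, 12.4% below). With library totals alone as the scaling the split was 5 higher and 3 lower, and in a limma fit of log2 FPKM it was 7 and 2. The JHU083 count was 4 without replicate 1 or 2 of Control or replicate 2 of JHU083, and 2 without replicate 3 of Control. Between the compounds, 21 members were higher with WGFT17 and 3 lower (44.7% of all tested genes called, 20.4% higher and 24.4% lower), and the median was 0.32. FPKM values did not overlap between them for 26 members, 23 with WGFT17 above and 3 with it below, and for 53.4% of all tested genes (27.4% above, 25.9% below). Without replicate 3 of JHU083 the numbers were 4 higher and 4 lower for JHU083 against Control, 21 and 3 for WGFT17 against Control, and 21 and 3 between the compounds. Both comparisons with Control share its 3 libraries.

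**Figure D1:**
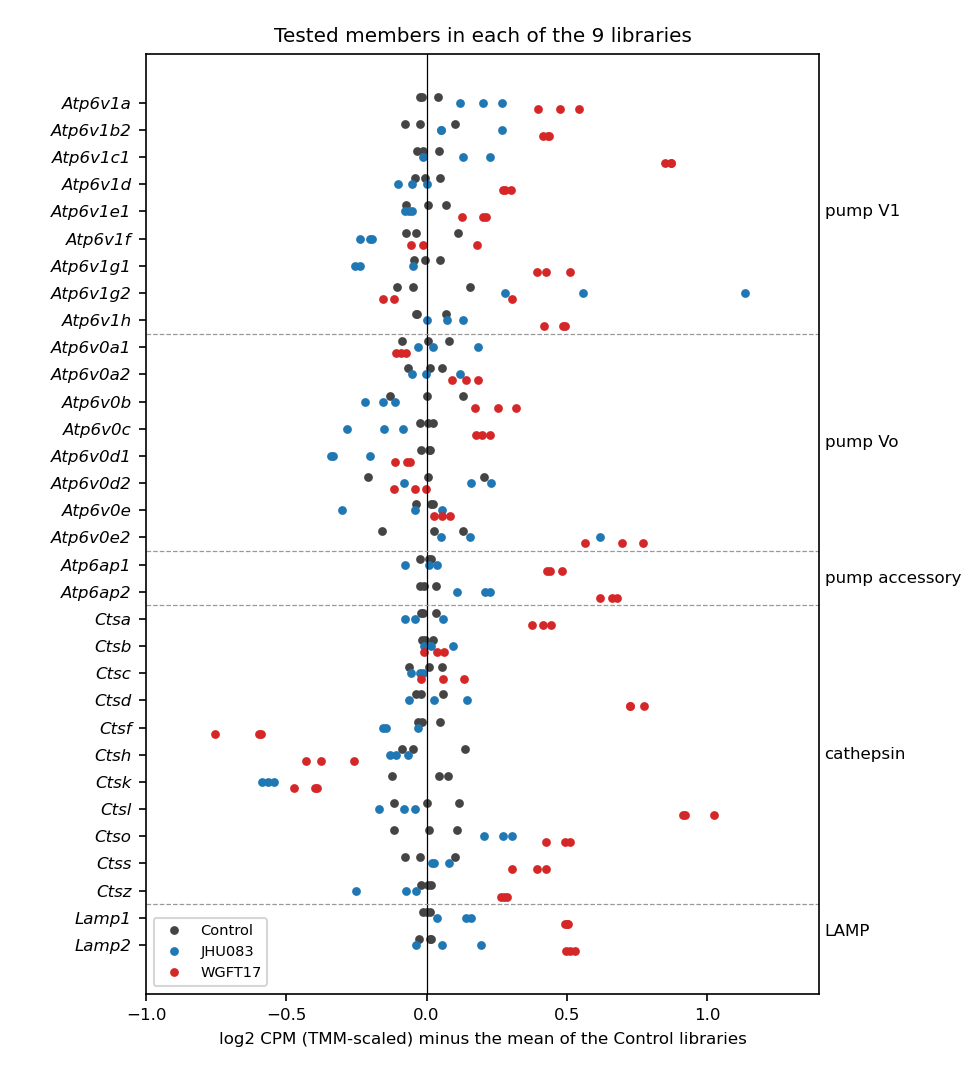
Each dot is 1 library of 1 tested member, coloured by group, and the x axis gives log2 CPM (counts scaled to library size, with TMM factors) minus the mean of the 3 Control libraries. The WGFT17 dots of Ctsl, Ctsd and Atp6v1c1 lie well to the right of the Control and JHU083 dots, and those of Ctsf, Ctsh and Ctsk lie to the left of all Control dots.

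The median change differed between the classes with WGFT17 against Control. All 9 tested V1 genes had positive log2 changes against Control and 7 rose (median 0.43), while 3 of 8 Vo genes rose (median 0.096), both accessory genes rose (median 0.55), 6 of 11 cathepsins rose and 3 fell (median 0.28), and both tested LAMP genes rose (median 0.51). Over the genes of the name rule, summed V1 over summed Vo FPKM was 0.717, 0.741 and 0.689 in Control, 0.75, 0.743 and 0.794 with JHU083 and 0.884, 0.891 and 0.876 with WGFT17. On these sums the WGFT17 libraries lay above all others. The Vo sum leaves out the accessory genes and Tcirg1, a Vo gene outside the name rule that also rose with WGFT17. The ratio of the whole pump was not computed, and this order need not hold for it. With JHU083, 1 V1 gene rose and 1 fell (median 0.069), 2 Vo genes fell (median -0.033), 1 accessory gene rose, 1 cathepsin rose and 1 fell (median -0.032), and neither LAMP gene passed the test (median 0.093). For WGFT17 against JHU083 the medians were 0.30 for V1 (8 higher, 1 lower) and 0.18 for Vo (3 higher). They were 0.47 for accessory genes, 0.22 for cathepsins and 0.41 for LAMP genes. The V1 and Vo medians lay closer together there than against Control. The Vo counts and medians include Atp6v0e2, which reached the minimum FPKM only through WGFT17. All 5 members with the TCACGTG promoter motif rose with WGFT17 against Control, as did 11 of 19 members with an entry and no match to it. Counted among the members without a match, Ctsl and Ctsf held the shorter core CACGTG. Of these, Ctsl rose with WGFT17 (log2 0.95) and Ctsf fell (log2 -0.65). Among all tested genes with an entry, 37.9% of 517 with the motif and 28.9% of 8174 without it were called higher in the same comparison. With JHU083 against Control, 1 of 5 members with the motif and 2 of 19 without it rose, beside 15.9% and 12.1% of all such genes. Between the compounds, 5 of 5 and 12 of 19 members were higher with WGFT17, beside 26.9% and 21.3%.

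**Figure D2:**
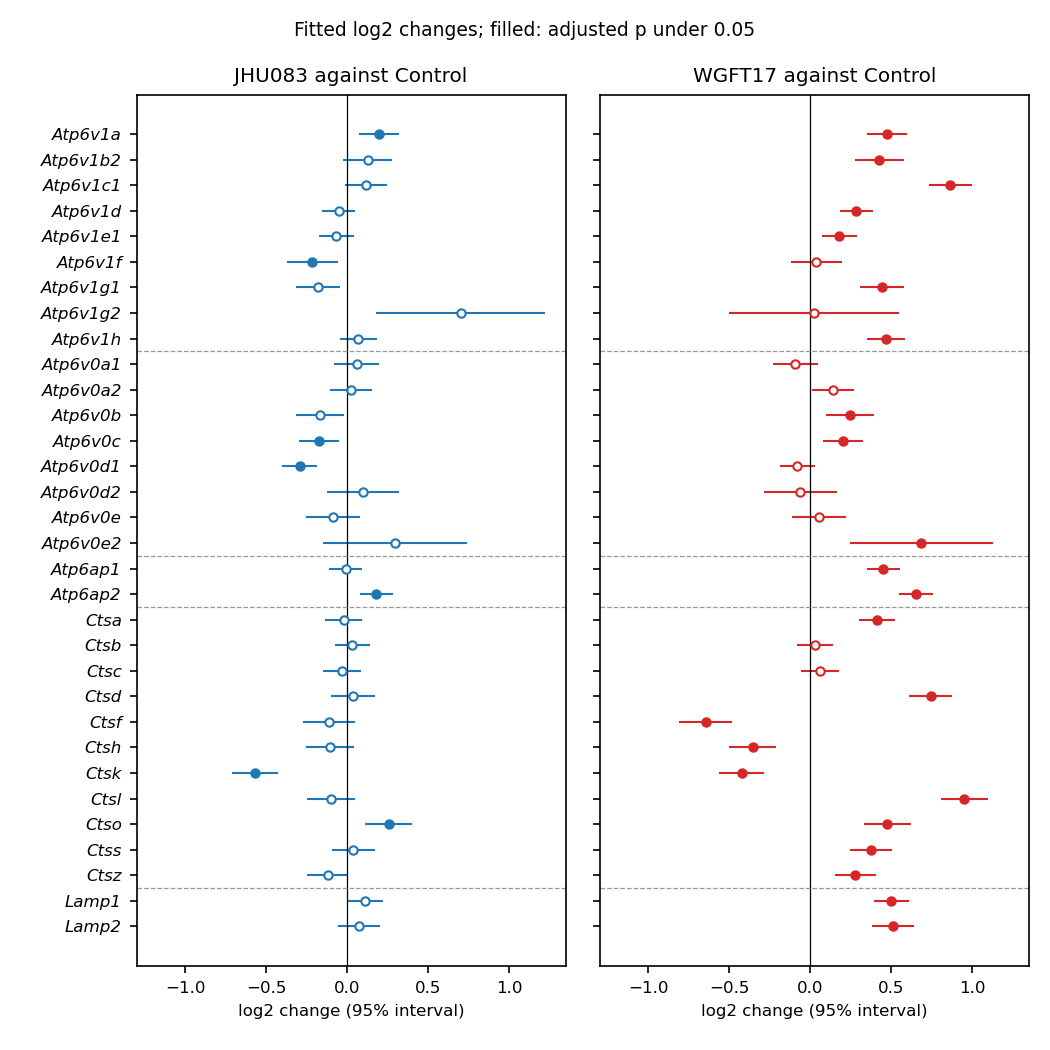
Log2 changes of the 32 tested members against Control for JHU083 and WGFT17, with 95% intervals of the edgeR fit, grouped by class, and filled points where the adjusted p is under 0.05. With WGFT17, 20 intervals of called members lie above 0 and 3 below, and with JHU083 3 lie above and 4 below.

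Among V1 subunits, Atp6v1c1 rose most with WGFT17. It encodes subunit C, the part of the stator whose release and rebinding accompanies the separation of the sectors (chr15:38661933-38692446, plus strand, GRCm38). Its level was 23.4, 22.6 and 21.9 FPKM in Control, 24.1, 28.3 and 26.3 with JHU083 and 43.99, 44.5 and 44.9 with WGFT17. Every WGFT17 library was above every other library, and the log2 change from Control was 0.86 (SE 0.059, adjusted p = 3.32e-07), a rise of 1.82-fold. JHU083 lay above Control in all 3 libraries without passing the test (log2 0.12, adjusted p = 0.167). Atp6v1c2, the other gene for subunit C, was at 0 to 0.07 FPKM.

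Both genes of the catalytic head that were tested rose with WGFT17. Atp6v1a encodes subunit A, which holds the catalytic sites, and was at 60.9, 63.9 and 60.1 FPKM in Control, 71.9, 79.4 and 75.2 with JHU083 and 96.97, 92.1 and 87.9 with WGFT17. The 3 groups did not overlap, in the order Control, JHU083, WGFT17, with log2 changes of 0.20 for JHU083 (adjusted p = 0.0271) and 0.47 for WGFT17 (adjusted p = 2.97e-05) against Control and 0.27 between them (adjusted p = 0.00204). The JHU083 call on Atp6v1a was lost without replicate 1, 2 or 3 of Control (adjusted p = 0.0758, 0.0558 and 0.0918) or replicate 2 of JHU083 (0.0903). Atp6v1b2, the broadly expressed gene for subunit B, was at 73.1, 71.03 and 78.98 FPKM in Control, 82.7, 95.7 and 81.7 with JHU083 and 108, 108 and 107 with WGFT17. WGFT17 was again above the rest (log2 0.43, adjusted p = 0.000291), and JHU083 did not pass the test (log2 0.13, adjusted p = 0.198). Its paralog Atp6v1b1, known from kidney and inner ear, was listed at 0 in 8 libraries and at 0.03 FPKM in replicate 2 of JHU083.

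Stalk subunits also rose with WGFT17. Atp6v1g1, the peripheral stalk subunit G and the most abundant V1 transcript, was at 102, 109.6 and 104 FPKM in Control, 95.9, 94.1 and 108 with JHU083 and 149, 161 and 153 with WGFT17. JHU083 overlapped with Control (log2 -0.18, adjusted p = 0.0605), and without replicate 3 of JHU083 the fall passed the test (log2 -0.25, adjusted p = 0.00337). The rise with WGFT17 was 0.44 against Control (adjusted p = 0.000104) and 0.62 against JHU083 (adjusted p = 9.28e-06) on the log2 scale. A processed copy, Gm13453, matches Atp6v1g1 at 99.44% of 357 aligned bases and was listed at 2.61 to 4.21 FPKM, so some reads could have been assigned to either. Atp6v1h, the subunit that inhibits ATP hydrolysis in the detached sector, rose from 7.97, 8.05 and 8.51 FPKM in Control to 12.4, 11.7 and 12.5 with WGFT17 (log2 0.47, adjusted p = 1.82e-05). Atp6v1d, of the central rotor, and Atp6v1e1, of the peripheral stalk, rose by less, with log2 changes of 0.28 (adjusted p = 0.000339) and 0.18 (adjusted p = 0.00944) against Control. Neither passed the test with JHU083.

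The other two V1 genes did not pass the test against Control with WGFT17. Atp6v1f, a rotor subunit, was at 63.3, 70.8 and 61.4 FPKM in Control, 60.6, 60.7 and 58.5 with JHU083 and 69.4, 79.02 and 67.8 with WGFT17. WGFT17 overlapped with Control, with a log2 change of 0.038 (95% interval -0.12 to 0.19), while JHU083 lay below Control by a narrow margin (log2 -0.21, adjusted p = 0.0489). That JHU083 call was lost without any single library other than replicate 2 of WGFT17 (adjusted p = 0.0504 to 0.186), and the rise of Atp6v1f in WGFT17 over JHU083 (log2 0.25, adjusted p = 0.0132) was lost without replicate 2 of WGFT17 (0.0634). Atp6v1g2, a subunit G gene known from neurons, was at 0.91, 0.95 and 1.08 FPKM in Control, 1.27, 1.54 and 2.29 with JHU083 and 0.98, 0.94 and 1.31 with WGFT17. JHU083 lay above Control in each library (log2 0.70, adjusted p = 0.0525), and WGFT17 was called lower than JHU083 (log2 -0.68, adjusted p = 0.036) although 1 WGFT17 library reached into the JHU083 range. This last call was lost without replicate 2 of Control (adjusted p = 0.0511), replicate 3 of JHU083 (0.129), or replicate 1 or 2 of WGFT17 (0.108 and 0.116). Atp6v1g2 overlaps Nfkbil1 on the opposite strand, which had a mean of 6.217 FPKM against 1.252 for Atp6v1g2, and the sources used here do not say whether counting used strand.

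In the Vo sector, Atp6v0c, the proteolipid that forms the rotating ring, was the most abundant pump transcript. It was at 176, 183 and 178 FPKM in Control, 173, 181 and 156 with JHU083 and 222, 225 and 219 with WGFT17. WGFT17 lay above all other libraries (log2 0.20 against Control, adjusted p = 0.00956), and JHU083 was called lower than Control although 1 of its libraries lay within the Control range (log2 -0.17, adjusted p = 0.0464). The fall with JHU083 was lost without replicate 1, 2 or 3 of Control (adjusted p = 0.0795, 0.136 and 0.116), replicate 1 of JHU083 (0.0695) or any WGFT17 library (0.0641 to 0.0691). A processed copy, Atp6v0c-ps2, matches at 99.74% of 387 aligned bases and was listed at 105, 109 and 112 FPKM in Control, 69.9, 68.4 and 87.3 with JHU083 and 83.2, 91.5 and 84.3 with WGFT17. The copy fell against Control with both compounds, by 0.63 (JHU083, adjusted p = 0.00166) and 0.44 (WGFT17, adjusted p = 0.00181) on the log2 scale, where the parent gene rose with WGFT17. Reads of the pair may have been split between them, so both were also summed. The summed counts gave log2 changes of -0.20 (adjusted p = 0.0187) with JHU083, 0.16 (0.0216) with WGFT17 and 0.36 (0.000172) between the compounds.

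Atp6v0b, the other ring subunit, rose with WGFT17. Its levels were 68.5, 75.6 and 81.4 FPKM in Control, 72.3, 74.05 and 68.3 with JHU083 and 91.3, 100.4 and 96.8 with WGFT17, with no WGFT17 library below any other (log2 0.25 against Control, adjusted p = 0.0091). Atp6v0e2, a minor paralog of subunit e, rose too, from 0.7, 0.87 and 0.8 FPKM in Control to 1.26, 1.46 and 1.4 with WGFT17 (log2 0.68, adjusted p = 0.0127; 0.0501 without replicate 1 of Control). It reached the minimum of 1 FPKM only through WGFT17, the group where it was highest, as the mean of the other groups was 0.913. Without it, 19 of 31 members and 2 of 7 Vo genes rose with WGFT17. The medians given for all members, the pump and Vo include Atp6v0e2. In the fit with the retinal term, the log2 changes of Atp6v0b, Atp6v0c and Atp6v0e2 with WGFT17 were 0.16, 0.033 and 0.47. None of these was called there. The main paralog Atp6v0e, at 33.2, 32.3 and 33.1 FPKM in Control, 34.3, 36.4 and 28.3 with JHU083 and 36.1, 37.4 and 36.98 with WGFT17, did not pass the test in any comparison (WGFT17 against Control, log2 0.055, adjusted p = 0.555).

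Subunit d gave the pump gene with the smallest adjusted p for JHU083. Atp6v0d1, the general form of the subunit that links the ring to the V1 rotor (chr8:105524465-105566047, minus strand, GRCm38), was at 103, 106 and 105 FPKM in Control, 89.2, 88.2 and 96.5 with JHU083 and 108, 107 and 105 with WGFT17. All JHU083 libraries lay below the rest, and the log2 change from Control was -0.29 (SE 0.049, adjusted p = 0.00276), a call that held in all 21 alternatives. With WGFT17 the log2 change was -0.081 (95% interval -0.19 to 0.027), and WGFT17 was higher than JHU083 by 0.21 (adjusted p = 0.00462). Atp6v0d2, a paralog known from osteoclasts and some macrophages, was at 89.3, 77.6 and 102 FPKM in Control, 90.5, 111 and 105 with JHU083 and 93.3, 95.5 and 89.03 with WGFT17, with overlap between all groups and no call (WGFT17 against Control, 95% interval -0.29 to 0.16). Atp6v0d1 held 53.6, 57.8 and 50.7% of the summed subunit d FPKM in Control, 49.6, 44.2 and 47.8% with JHU083 and 53.7, 52.8 and 54.1% with WGFT17.

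Subunit a, whose isoforms direct the pump to different membranes, has a form outside the name rule, Tcirg1 (isoform a3), known from late endosomes, lysosomes and the osteoclast surface. Tcirg1 was at 72.7, 66.8 and 70.5 FPKM in Control, 93.5, 99.7 and 73.7 with JHU083 and 131, 135 and 140.1 with WGFT17. WGFT17 was far above the other groups (log2 0.84 against Control, SE 0.093, adjusted p = 1.59e-05), and JHU083 did not pass the test (log2 0.25, adjusted p = 0.0709). The JHU083 change passed without replicate 3 of JHU083 (log2 0.36, adjusted p = 0.000653) and in 5 other alternatives (adjusted p = 0.0253 to 0.0377). Among the members, Atp6v0a1 was at 62.4, 58.9 and 65.1 FPKM in Control, 67.7, 75.2 and 64.5 with JHU083 and 63.6, 61.9 and 63.2 with WGFT17, and WGFT17 overlapped with Control (log2 -0.093, 95% interval -0.23 to 0.047). Against JHU083 its log2 change of -0.15 (adjusted p = 0.0735) passed without replicate 3 of JHU083 (-0.19, adjusted p = 0.0171), with library totals (0.0318), at a minimum of 5 FPKM (0.0277) and with a term for libraries with retinal transcripts (0.0164). Atp6v0a2, known from the Golgi, was at 9.66, 8.94 and 9.3 FPKM in Control and 11.4, 10.6 and 11.1 with WGFT17 and missed the threshold (log2 0.14, adjusted p = 0.0661). It passed without replicate 2 or 3 of JHU083 (adjusted p = 0.0473 and 0.0304), with only the 6 libraries of the comparison (0.025), with library totals (0.0318) and in limma fits with pseudocounts 1 and 0.1 (log2 0.22 and 0.24, adjusted p = 0.00675 and 0.0068). Atp6v0a4, the kidney form, was at 0 to 0.04 FPKM. Of the summed subunit a FPKM, Tcirg1 held 50.2, 49.6 and 48.7% in Control, 54.6, 53.7 and 49.9% with JHU083 and 63.5, 65.1 and 65.4% with WGFT17.

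**Figure D3:**
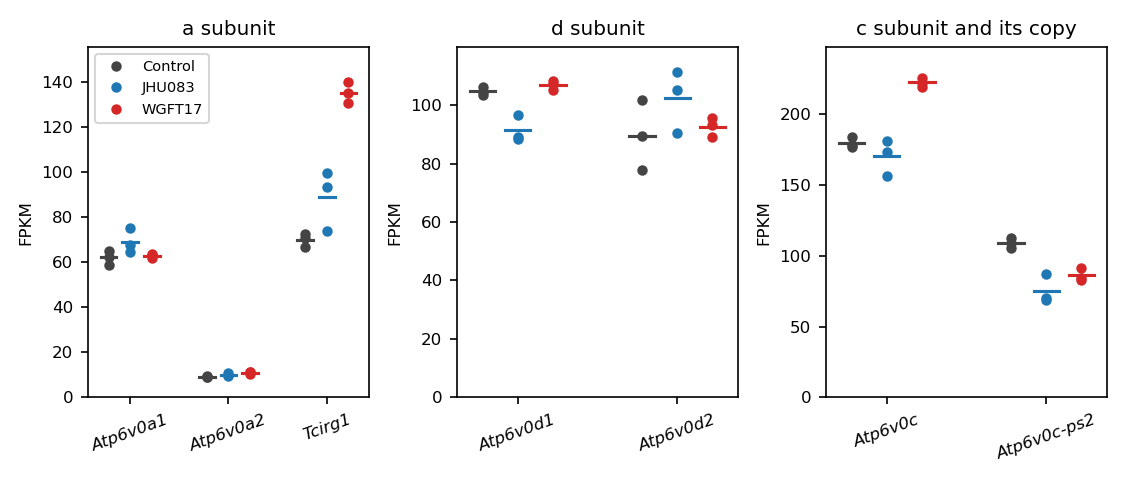
FPKM per library (dots) and group means (lines) for the isoforms of subunit a, those of subunit d, and Atp6v0c beside its processed copy. Tcirg1 rises to 131 to 140.1 FPKM with WGFT17 while Atp6v0a1 stays between 58.9 and 75.2 in all libraries, and Atp6v0d1 is lowest in JHU083.

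Both accessory genes rose with WGFT17. Atp6ap2, the prorenin receptor, which takes part in pump assembly (chrX:12587801-12617049, plus strand, GRCm38), was at 53.4, 55.3 and 52.3 FPKM in Control, 62.2, 66.1 and 66.6 with JHU083 and 92.7, 91.1 and 89.2 with WGFT17. The groups did not overlap, and the log2 changes from Control were 0.18 with JHU083 (adjusted p = 0.019) and 0.65 with WGFT17 (SE 0.047, adjusted p = 5.27e-07). The JHU083 call was lost without replicate 1 or 3 of Control (adjusted p = 0.0529 and 0.0721) or replicate 2 of JHU083 (0.0624). Atp6ap1, another assembly factor that becomes part of Vo, was at 137, 142 and 139 FPKM in Control, 150.1, 152 and 139.9 with JHU083 and 203, 209 and 203 with WGFT17. It rose with WGFT17 (log2 0.45, adjusted p = 1.05e-05), and its log2 change with JHU083 was -0.0091 (95% interval -0.11 to 0.095).

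Cathepsin D, an aspartic protease, was by far the most abundant member. Ctsd (chr7:142375911-142388038, minus strand, GRCm38) was at 4986, 5096 and 5287 FPKM in Control, 5595, 6037 and 5201 with JHU083 and 9125, 9407 and 9187 with WGFT17. JHU083 overlapped with Control (log2 0.037, 95% interval -0.10 to 0.17), while every WGFT17 library was above every other, with a log2 change of 0.74 (SE 0.061, adjusted p = 1.5e-06), a 1.67-fold rise. Its share of all cathepsin FPKM was 54.6, 55.2 and 54.96% in Control, 55.6, 56.4 and 54.2% with JHU083 and 62.9, 63.1 and 63.7% with WGFT17. Ctsa, the serine carboxypeptidase that also protects lysosomal galactosidase and neuraminidase, was at 235, 238 and 242 FPKM in Control, 249, 265 and 239.6 with JHU083 and 333, 348 and 345 with WGFT17. It rose with WGFT17 (log2 0.41, adjusted p = 4.31e-05) and JHU083 overlapped with Control (log2 -0.02, adjusted p = 0.804). Ctsa overlaps Pltp, a neighbour on the opposite strand with a mean of 89.2 FPKM, and reads of the shared stretch may have been counted for either.

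Of the 9 tested cysteine cathepsins, 4 rose with WGFT17, 3 fell and 2 did not pass the test. Ctsl, an endopeptidase that also processes other cathepsins (chr13:64359337-64370890, minus strand, GRCm38), was at 152, 141 and 163 FPKM in Control, 145, 153 and 156 with JHU083 and 309.7, 331 and 309.8 with WGFT17. Its rise of 1.93-fold over Control (log2 0.95, SE 0.067, adjusted p = 3.99e-07) and of 2.07-fold over JHU083 (log2 1.05, adjusted p = 2.06e-07) was the largest of any tested member in both comparisons. JHU083 and Control overlapped (log2 -0.10, adjusted p = 0.3). Ctss, which trims the invariant chain of MHC class II, was at 1438, 1397 and 1555 FPKM in Control, 1598, 1649 and 1573 with JHU083 and 2070.4, 2111 and 1957 with WGFT17. Ctss rose with WGFT17 (log2 0.37, adjusted p = 0.000259), and the JHU083 libraries, all above Control in FPKM, had a log2 change of 0.04 (adjusted p = 0.652). Ctsz, a carboxypeptidase, was at 474, 484 and 480.5 FPKM in Control, 489, 498 and 428 with JHU083 and 626, 628 and 624 with WGFT17, and it rose with WGFT17 (log2 0.28, adjusted p = 0.00178).

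Ctso was the only cathepsin called higher with JHU083. It stood at 7.87, 8.5 and 7.15 FPKM in Control, 10.2, 9.62 and 10.3 with JHU083 and 11.9, 11.99 and 11.4 with WGFT17. The groups did not overlap, with log2 changes from Control of 0.26 with JHU083 (adjusted p = 0.0171; 0.0695 without replicate 3 of Control) and 0.48 with WGFT17 (adjusted p = 9.42e-05). The step from JHU083 to WGFT17 (log2 0.22, adjusted p = 0.0188) was lost without replicate 2 of JHU083 (0.0602) or replicate 1 or 2 of WGFT17 (0.0551 and 0.0674). Ctsb and Ctsc did not pass the test in any comparison. Ctsb, next to Ctsd in mean level, was at 1699, 1725 and 1734 FPKM in Control, 1833, 1958 and 1845 with JHU083 and 1900.0, 1929 and 1849.6 with WGFT17, with a log2 change for WGFT17 of 0.03 (95% interval -0.081 to 0.14). Ctsc, the dipeptidyl peptidase that activates granule proteases, was at 49.4, 51.3 and 46.5 FPKM in Control, 50.6, 51.5 and 51.6 with JHU083 and 58.01, 54.8 and 52.4 with WGFT17 (log2 0.058 for WGFT17, adjusted p = 0.366). In the limma fit of log2 FPKM, which runs higher as given above, both were called with WGFT17 (adjusted p = 0.0412 for Ctsb and 0.022 for Ctsc).

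Ctsf, Ctsh and Ctsk fell with WGFT17, and Ctsk fell with JHU083 as well. Ctsk, known for collagen breakdown by osteoclasts and fibroblasts (chr3:95499256-95509362, plus strand, GRCm38), was at 36.5, 32.05 and 35.4 FPKM in Control, 25.5, 24.9 and 24.5 with JHU083 and 28.4, 28.2 and 27.02 with WGFT17. Both drug groups lay below Control, with log2 changes of -0.57 for JHU083 (SE 0.064, adjusted p = 0.00055) and -0.42 for WGFT17 (adjusted p = 0.000174). The difference between the compounds missed the threshold (log2 0.14, adjusted p = 0.088). Over the same groups the summed fibroblast markers lay at 1320 to 1416 FPKM in Control, 850.4 to 1015 with JHU083 and 220 to 231 with WGFT17. The summed osteoclast markers, of which Itgb3 was higher with WGFT17, lay at 84.03 to 107 FPKM in Control, 71.4 to 96.0 with JHU083 and 39.3 to 42.5 with WGFT17. What part such cells had in the fall of Ctsk was not tested. Ctsf was at 5.37, 5.45 and 5.62 FPKM in Control, 5.76, 5.26 and 5.26 with JHU083 and 3.5, 3.91 and 3.92 with WGFT17. WGFT17 lay below both other groups (log2 -0.65 against Control, adjusted p = 2.04e-05, and -0.54 against JHU083, adjusted p = 0.000112). Ctsh, an aminopeptidase, was at 54.97, 53.8 and 61.8 FPKM in Control, 55.7, 57.9 and 55.9 with JHU083 and 47.2, 50.97 and 45.6 with WGFT17, again lowest with WGFT17 (log2 -0.36, adjusted p = 0.000851). Summed dendritic cell markers were also lower in WGFT17, as were those of fibroblasts, neutrophils, osteoclasts, and mast cells and basophils. The part of any of these cells in both falls was not tested.

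**Figure D4:**
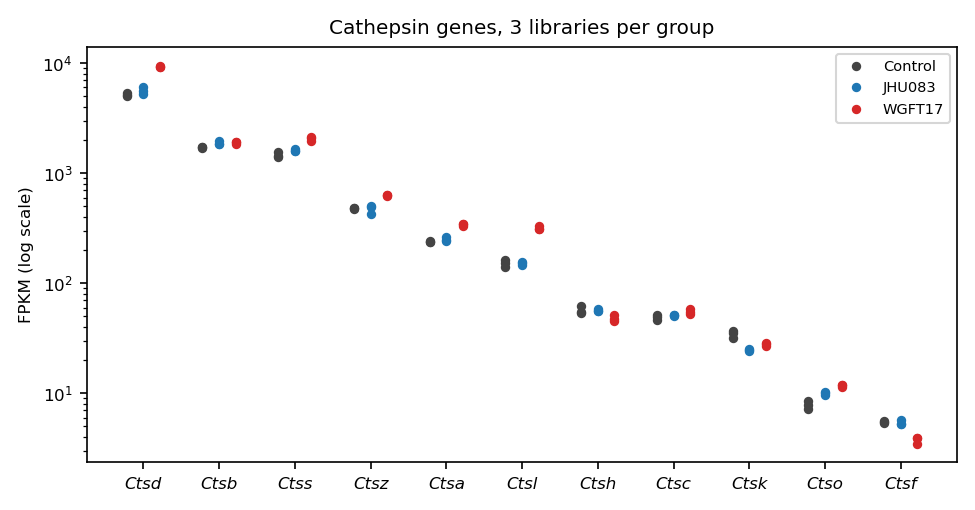
FPKM per library on a log axis for the 11 tested cathepsins, coloured by group. Ctsd lies between 4986 and 9407 FPKM, Ctsl separates WGFT17 (309.7 to 331) from the rest (141 to 163), and Ctsk, Ctsf and Ctsh are lower in WGFT17 than in Control.

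Both tested LAMP genes rose with WGFT17. Lamp1 (chr8:13159161-13175338, plus strand, GRCm38), whose promoter held 4 matches to the motif, was at 684, 677 and 673 FPKM in Control, 802, 808 and 739 with JHU083 and 1029.9, 1029.5 and 1043 with WGFT17. The 3 groups did not overlap, and the log2 change with WGFT17 was 0.50 (SE 0.049, adjusted p = 5.66e-06). With JHU083 it was 0.11 (adjusted p = 0.114), and 0.15 (adjusted p = 0.00494) without replicate 3 of JHU083. Lamp2, which also serves in chaperone-mediated autophagy, was at 50.9, 51.3 and 49.02 FPKM in Control, 52.7, 55.9 and 61.1 with JHU083 and 77.4, 78.2 and 76.99 with WGFT17. The log2 change with WGFT17 was 0.51 (adjusted p = 2.22e-05), and with JHU083 it was 0.073 (adjusted p = 0.392). Against JHU083, WGFT17 was higher by 0.39 for Lamp1 and 0.44 for Lamp2 (adjusted p = 5.58e-05 and 9.39e-05).

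Members under the level filter are given with values and no test. Ctse, an aspartic protease of endosomes, was at 0.98, 0.95 and 0.82 FPKM in Control, 0.69, 0.78 and 0.72 with JHU083 and 0.57, 0.52 and 0.60 with WGFT17. Ctsg, a serine protease of neutrophil granules, was at 0.74, 0.65 and 0.25 FPKM in Control, 0.15, 0 and 0.16 with JHU083 and 0, 0.16 and 0.12 with WGFT17, beside neutrophil markers that were also highest in Control, and their part in these values was not tested. Ctsw, known from cytotoxic lymphocytes, was at 0.08 to 0.30 FPKM and Ctsj at 0 to 0.07. Lamp3, known from mature dendritic cells and lung, was at 0 to 0.03 FPKM, and Lamp5 was at 0.02 in each Control library and listed at 0 elsewhere. The remaining 3 are the pump paralogs Atp6v0a4, Atp6v1b1 and Atp6v1c2 described above.

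Other genes of the same organelle were followed from fixed lists, and their counts stand beside 28% higher and 30% lower among all tested genes with WGFT17 against Control, and 11.5% and 12.5% with JHU083. Of 12 tested pump subunits and assembly factors outside the name rule, 7 rose and 4 fell with WGFT17 against Control (median log2 0.31), and 5 rose with JHU083 (median 0.18). Beside Tcirg1, the assembly factor Tmem199 rose with WGFT17 (log2 0.62, adjusted p = 2.58e-05), while Tmem9 (log2 -0.82, adjusted p = 7.62e-05) and Rogdi (log2 -0.65, adjusted p = 0.00137) fell. Of 42 other lysosomal hydrolases 18 rose and 11 fell with WGFT17 (median 0.080), and 2 rose and 2 fell with JHU083. The peptidase Scpep1 went from a mean of 122 FPKM in Control to 248 with WGFT17 (log2 0.92, adjusted p = 1.2e-08) and the iduronidase Idua from 9.46 to 19.3 (log2 0.92, adjusted p = 4e-06), whereas Acp5, the tartrate-resistant phosphatase that is also in the osteoclast marker list, fell from 45.6 to 11.02 (log2 -2.16, adjusted p = 2.54e-07) and the sulfatase Arsb from 14.7 to 9.11 (log2 -0.80, adjusted p = 9.2e-08). Of 26 other lysosomal membrane proteins 17 rose and 2 fell with WGFT17 (median 0.36), and 3 rose and 2 fell with JHU083. Npc1, which exports cholesterol, went from a mean of 31.6 to 84.03 FPKM (log2 1.30, adjusted p = 5.3e-09), the cation channel Mcoln3 from 0.75 to 2.86 (log2 1.81, adjusted p = 8.89e-07), and the channel Tpcn1 fell from 19.2 to 11.3 (log2 -0.87, adjusted p = 3.02e-07). Mcoln3 reached the minimum of 1 FPKM only through WGFT17 (mean of the other groups 0.767), and without it 16 of 25 rose. The list median of 0.36 includes Mcoln3. With JHU083, Ostm1, a partner of the lysosomal chloride transporter, rose (log2 0.31, adjusted p = 0.00247), as did the sialic acid carrier Slc17a5 (log2 0.29, adjusted p = 0.00705).

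Genes that deliver or inhibit the cathepsins came next. Of 11 tested genes of mannose 6-phosphate tagging and sorting, 4 rose and 1 fell with WGFT17 (median log2 0.10) and 1 fell with JHU083. Gnptg, a subunit of the tagging enzyme, rose with WGFT17 (log2 0.39, adjusted p = 0.00254) and Gnptab, which encodes its catalytic subunits, fell (log2 -0.19, adjusted p = 0.0103). The call on Gnptab was lost with no minimum FPKM (adjusted p = 0.0653), in limma fits with pseudocounts 1 and 0.1 (log2 -0.079 and -0.084, adjusted p = 0.2 in both) and with the retinal term (0.306). Of 7 tested inhibitors of cathepsins, 2 rose and 3 fell with WGFT17 (median -0.43), and 2 fell with JHU083, beside 28% higher and 30% lower over all tested genes with WGFT17 and 12.5% lower with JHU083. Serpina3g fell most with WGFT17, by log2 changes of -4.11 against Control and -3.97 against JHU083. Both calls held in all 20 alternatives that tested this gene. The cystatin Cst7 went from a mean of 2.13 FPKM in Control to 1.14 with JHU083 and 0.43 with WGFT17 (log2 -2.38 with WGFT17, adjusted p = 1.65e-05). Cst7 reached the minimum of 1 FPKM only through Control (mean of the other groups 0.785), and without it 2 of 6 fell with WGFT17 and 1 with JHU083. The list median of -0.43 includes Cst7. The secreted cystatin Cst3, far more abundant, was at 340.4, 359 and 371 FPKM in Control, 357, 362 and 303 with JHU083 and 193, 206 and 193 with WGFT17, and fell with WGFT17 (log2 -0.96, adjusted p = 5.39e-07). Serpinb9 rose with WGFT17 (log2 0.68, adjusted p = 0.000459), and Cstb, the intracellular stefin B, fell with JHU083 (log2 -0.42, adjusted p = 0.00766).

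Of the genes for regulators that bind the E-box, Tfe3 rose with WGFT17, and Mitf and Tfec with JHU083. Tfe3 was at 14.6, 14.2 and 14.8 FPKM in Control, 15.5, 15.9 and 14.3 with JHU083 and 17.8, 17.8 and 18.2 with WGFT17, a rise with WGFT17 of 0.20 on the log2 scale (adjusted p = 0.00551). With the retinal term it was 0.068 and not called (adjusted p = 0.421). Tfeb was at 5.58, 5.17 and 5.26 FPKM in Control, 6.36, 6.65 and 4.91 with JHU083 and 4.91, 5.13 and 5.16 with WGFT17. Its log2 changes of 0.069 with JHU083 and -0.18 with WGFT17 missed the threshold (adjusted p = 0.647 and 0.139), but without replicate 3 of JHU083 they were 0.19 (adjusted p = 0.0475) and -0.18 (adjusted p = 0.0165). Mitf rose with JHU083 (log2 0.26, adjusted p = 0.0318), a call lost without replicate 2 or 3 of Control (0.11 and 0.064) or replicate 2 of JHU083 (0.0954), and its log2 change with WGFT17 was 0.0084 (adjusted p = 0.934). Tfec, the fourth gene of the family, rose with JHU083 (log2 0.25, adjusted p = 0.046), a call lost without any single library other than replicate 3 of JHU083 (0.0523 to 0.164). Of the 21 tested genes of this family and of mTORC1 signalling at the lysosome, 12 rose and 1 fell with WGFT17 (median 0.20), and 6 rose and 1 fell with JHU083 (median 0.050). Rragd, a Rag GTPase that recruits mTORC1, went from a mean of 4.20 FPKM in Control to 9.57 with WGFT17 (log2 1.08, adjusted p = 1.4e-06). The amino acid sensor Slc38a9 rose with both compounds, by 0.45 with JHU083 (adjusted p = 0.00786) and 0.60 with WGFT17 (adjusted p = 0.000295) on the log2 scale.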

How the data were processed

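Poly(A) RNA of 9 libraries (3 per group) was read as pairs of 150 bases from stranded libraries, per the labels' protocols. Named in the submitters' processing notes, without roles, are HISAT2 2.2.1, cutadapt 1.9, edgeR, StringTie 2.1.6, DESeq2 and the build mm9, while the table's coordinates equal GRCm38 (GENCODE M21) for 26125 of 28926 matched genes, so positions are in GRCm38. The authors deposited FPKM values (reads scaled to transcript length and depth) and an expected count per gene and library, which is unscaled; how each was computed is not given in the sources used here. The expected counts deposited are whole numbers and summed to 56624220 to 69112134 per library. A ratio of about 4 counts to 1 read pair was assumed for the alternative with divided counts and was not derived here. WGFT17 columns were matched to their samples by the labels' description.

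The counts were tested with edgeR 4.0.16 in R 4.3.3 (TMM, all 9 libraries in 1 fit, common dispersion 0.01486), after a filter of mean FPKM of at least 1, with Benjamini-Hochberg adjustment over 11798 genes. The method was tested on simulated data. Alternatives used DESeq2 1.42.0, limma 3.58.1 on log2(FPKM + 1 or 0.1), other scalings, filters of no minimum and 5 FPKM, fits of 6 libraries, a replicate block, counts divided by 4, and leaving out each library. A term for libraries with retinal transcripts rests on replicate 3 of JHU083 alone. Summing Atp6v0c with its copy, and counting calls without genes that reach the minimum FPKM only through their highest group (the mean of the other groups under 1 FPKM), were added after seeing the data. Members and gene lists were chosen with earlier results of these data known. In each class, the 2 called members with the largest rise and fall per comparison, the most abundant member and paralogs were named with values per library, and in each list at most the 2 largest called rises and falls. Other members were added, and Tfeb, Tfe3, Tfec, Mitf and Cst3 were named outside that rule after their values were seen. Tldc1, Tldc2 and Stfa1 to Stfa3 were not analysed here.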

Additional observations from a re-analysis of the deposited data

How the results depend on the processing

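Of the calls on members for JHU083 against Control, 2 of 7 (Atp6v0d1 and Ctsk) held in every alternative that tested the gene. So did 18 of 23 for WGFT17 against Control and 21 of 24 between the compounds. There were 21 alternatives, but 20 for Ctsf, whose mean lay under 5 FPKM. The numbers of members called with WGFT17 were 19 to 26 against Control and 21 to 26 between the compounds. The 7 members called with JHU083 were 3 with no minimum FPKM, 4 with only the 6 libraries of the comparison and 2 to 8 without 1 library. For JHU083 the pump median (0.023) was 0.11 and 0.12 in limma fits with pseudocounts 1 and 0.1, -0.047 with the retinal term and -0.029 to 0.058 without 1 library. The cathepsin median (-0.032) was 0.0037 with library totals, -0.0030 at a minimum of 5 FPKM, 0.062 and 0.063 in limma, -0.064 with the retinal term and -0.062 to -0.022 without 1 library. For WGFT17 against Control the pump median (0.25) was 0.35 and 0.36 in limma and 0.19 to 0.31 without 1 library, and the cathepsin median (0.28) was 0.086 with no minimum, which adds members near 0, 0.32 at 5 FPKM, 0.38 in both limma fits, 0.085 with the retinal term and 0.27 to 0.28 without 1 library. Between the compounds the pump median (0.30) was 0.27 to 0.36 without 1 library, and the cathepsin median (0.22) was 0.18 with no minimum, 0.25 at 5 FPKM and 0.19 to 0.24 without 1 library. The retinal term turned Atp6v0e with WGFT17 (log2 -0.25, adjusted p = 0.0145), Nagpa with JHU083 (-0.27) and WGFT17 (-0.23) and Akt1s1 with WGFT17 (-0.32), and ended the WGFT17 calls on Atp6v0b, Atp6v0c, Atp6v0e2, Atp6v1e1 and Ctsz (adjusted p = 0.277, 0.7, 0.295, 0.0887 and 0.269), on Tfe3 (0.421) and on Gnptab (0.306); the cause was not tested. Over all genes, 2831 calls for JHU083 became 1534 without replicate 2 and 1568 without replicate 3 of Control, and at 5 FPKM, where 6807 genes were tested, 6837 calls for WGFT17 became 4151 and 5277 between the compounds became 3305. Deviations of same-numbered libraries correlated at -0.034 to 0.161, and those of other pairs at -0.146 to 0.133. Not every library correlated best with its own number. With 3 libraries per group, such weak correlations cannot decide whether the numbers pair the libraries. With the replicate block 7, 23 and 24 members were called in the 3 comparisons, against 7, 23 and 24 without it, and JHU083 gave 2330 calls over all genes; with the block, JHU083 against Control lost Atp6v0c (adjusted p = 0.0638) and gained Atp6v1g2 (0.0344). Genes near 1 FPKM, such as Atp6v1g2 and Atp6v0e2, had the widest intervals.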
